A study of Drosophila melanogaster with 2 samples.

Results

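The genes of the general protein-folding machinery were examined for binding of the transcription factor Camta in fly embryos. The 30 genes were taken from a list by symbol or synonym, among 13945 protein-coding genes on the 6 chromosome arms of *Drosophila melanogaster*: 5 constitutive Hsc70 genes, the 8 subunit genes of the CCT chaperonin, 7 heat-inducible genes (6 Hsp70 copies and Hsp68), 4 genes of the heat shock factor and Hsp90 system, 2 Hsp60 genes and 4 genes of Hsp70 partners. All 30 were matched, 29 by their annotated symbol and Hsc70Cb by synonym, since the annotation calls it Hsp110. The measurement was chromatin immunoprecipitation and sequencing (ChIP-seq) with an antibody against GFP on whole embryos of pooled sexes aged 0 to 24 h, from the strain Camta-MiMIC-GFP, in which an eGFP exon inserted in an intron of Camta yields a Camta-eGFP fusion. There was 1 group of 2 biological replicates, numbered 2 and 3, from 1 transgenic line, and no untagged or heat-treated embryos were analysed here, so no conditions are compared. Whole embryos mix all tissues and stages of this window, and a weak site in all cells cannot be told apart from a strong site in few. No read counts were given, so depth is unknown.

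Hsp70-type chaperones bind unfolded segments of proteins and release them in a cycle driven by ATP, with J-domain proteins and nucleotide exchange factors as partners. The constitutive Hsc70 forms work in unstressed cells, whereas the Hsp70 and Hsp68 genes are nearly silent until heat shock factor, Hsf, binds heat shock elements in their promoters. CCT and Hsp60 are chaperonins, barrel-shaped complexes that enclose a folding protein, in the cytosol and in mitochondria respectively. Camta is a calmodulin-binding transcription activator, of a family known for CGCG-containing sites.

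Camta-eGFP was found at 8 of the 30 genes, and at none of the 7 classed here as heat-inducible, the Hsp70 copies and Hsp68. Genes of the other classes were not sorted by their response to heat, so this is no statement about all heat shock genes. A gene was called bound when the summit of an IDR peak, one kept by the authors after their test of irreproducible discovery rate, lay within 500 bp of one of its annotated start sites. By this rule 3 of 5 constitutive Hsc70 genes were bound (Hsc70-3, Hsc70-4 and Hsc70-5), 2 of 8 CCT genes (CCT3 and CCT8), Hsp83 alone of the Hsf and Hsp90 system, 2 of the 4 Hsp70 partners (Droj2 and stv), 0 of 2 Hsp60 genes and 0 of the 7 heat-inducible genes. Of all protein-coding genes, 18.8% were bound. The 8 of 30 amount to 26.7%, and the constitutive Hsc70 and CCT genes together to 5 of 13. The difference between the classes was not tested, because the genes were chosen with results of these data known and the 6 Hsp70 genes are repeated copies, alike to differing degrees.

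The sequences under 4 of the 8 peaks, those of Hsc70-4, CCT3, Droj2 and stv, are shown because they hold the summits by which these genes were called bound. Each holds the IDR summit as its middle base with 50 bases to either side, read 5′ to 3′ on the gene's strand from the RefSeq Release 6 genome, which has dm6 coordinates. Capitals mark a heat shock element of 2 units, TTCNNGAA or GAANNTTC. Only Hsc70-4 among these 4 has one. Its match ends 1 base before this summit, which is that of the pooled data. In replicate 3 the region had its summit 155 bp upstream of the nearest start site. In replicate 2 it was 12 bp downstream of the nearest start site, so the replicates did not place it alike.
Hsc70-4, chr3R:15242488-15242588, plus strand: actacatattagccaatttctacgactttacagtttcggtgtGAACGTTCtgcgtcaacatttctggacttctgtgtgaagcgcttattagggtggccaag
CCT3, chr3R:16647118-16647218, plus strand: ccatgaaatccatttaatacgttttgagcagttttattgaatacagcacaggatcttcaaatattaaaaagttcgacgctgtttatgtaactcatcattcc
Droj2, chr3R:13381843-13381943, plus strand: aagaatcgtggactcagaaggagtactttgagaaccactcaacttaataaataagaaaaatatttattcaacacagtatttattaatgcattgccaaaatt
stv, chr3L:13479897-13479997, plus strand: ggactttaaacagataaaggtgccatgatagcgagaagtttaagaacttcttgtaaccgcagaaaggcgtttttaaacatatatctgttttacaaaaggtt

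Hsp83, which encodes the cytosolic Hsp90, had the strongest peak of the 30 genes. The gene lies on 3L from 3192969 to 3197059 on the plus strand, and the peak from 3193008 to 3193224 was number 332 of the 4033 IDR peaks by signal value, at 387. The signal value is the authors' own score of a region and is compared only within a list. In replicate 2 the region over the summit stood at rank 232 of 30000 (signal value 174.7), and in replicate 3 at rank 424 of 29279 (212.6). Both replicates thus placed it above every other member.

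Hsp83 has 2 annotated start sites, and the summit at 3193107 fell between them. It lay 138 bp downstream of the first, in sequence annotated as 5' UTR, and 109 bp upstream of the second, at 3193216. A heat shock element of 2 units stood 68 to 61 bp upstream of the second start, and a match to TATAAA 30 to 25 bp upstream of it. The element, with its neighbouring bases at chr3L:3193130-3193159 on the plus strand, is shown because it lies 41 bp from the summit.
Hsp83 element: ggcatccagaagcctctaGAAGTTTCtaga
The first start site has no such element in the 250 bases before and 50 after it, but holds the DRE, TATCGATA, 182 to 175 bp upstream. A second, weaker IDR peak lay inside the gene, with its summit 1070 bp downstream of the second start and a signal value of 121.9.

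Of the constitutive Hsc70 genes, Hsc70-4 and Hsc70-5 were bound close to a start site. Hsc70-4 encodes the main cytosolic Hsc70 and lies on 3R from 15242687 to 15246614. Its peak, from 15242326 to 15242749 (signal value 173.5, rank 1549), had its summit 149 bp upstream of the first of 6 start sites. The region had rank 3337 in replicate 2 (signal value 45.1) and 1099 in replicate 3 (130.6), so it stood higher in the list of replicate 3. The same summit was 302 bp upstream of the start of tefu, which encodes the DNA damage kinase ATM and is transcribed the other way.

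Hsc70-5 encodes the mitochondrial Hsc70 and lies on 2R from 14252598 to 14256192 on the minus strand. Its peak, from 14255894 to 14256317, ranked 1621 with a signal value of 169.1. The summit was in annotated 5' UTR, 86 bp downstream of the first start site and 45 bp upstream of the second. The replicates gave it ranks 2678 (signal value 51.2) and 1313 (117.5). It was also 387 bp upstream of a start of the gene CG8531, so neither of these 2 Hsc70 peaks belongs to a single promoter.

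Hsc70-3 encodes BiP, the Hsp70 of the endoplasmic reticulum, on X from 11801696 to 11807117. Its peak (signal value 139, rank 2218) lay farther out, 483 bp upstream of the first of 4 start sites. The ranks were 1572 in replicate 2 (signal value 68.8) and 2809 in replicate 3 (73.9). No other gene had a start site within 500 bp of the summit. Nearer to the starts of Hsc70-3 the pooled relaxed list, which holds peaks and background candidates before thresholding, had 3 further regions, the highest at rank 8421.

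The remaining Hsc70 genes were not bound. Hsc70-1, on 3L from 13974061 to 13977761, had a relaxed region 362 bp upstream of a start at rank 5692 of the 30000 pooled regions, with a signal value of 74.8. Its ranks were 9695 in replicate 2 and 5655 in replicate 3. Hsc70-2, on 3R from 13044759 to 13047388, had no region in any of the lists within 500 bp, and the nearest pooled region lay 5740 bp away.

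**Figure D1:**
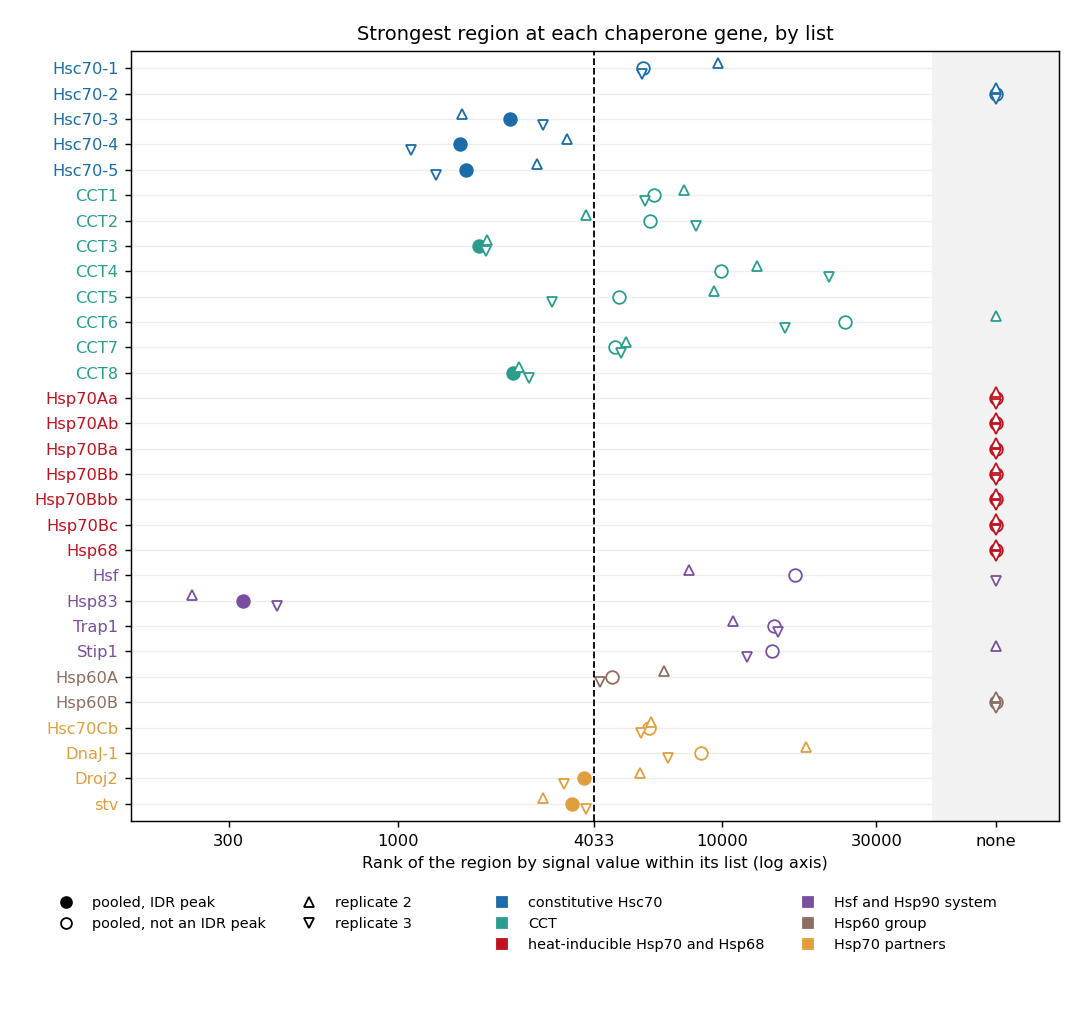
For each of the 30 genes, the rank by signal value (log axis, 1 is the strongest) of its region in the pooled list (circle, filled for an IDR peak), in replicate 2 (triangle up) and in replicate 3 (triangle down). For bound genes it is the region over the IDR summit, for others the strongest region within 500 bp of a start site, and "none" means no region; the dashed line is rank 4033, the last IDR peak. Hsp83 stands apart at the left, 6 CCT genes have their pooled region right of the line, and all 7 heat-inducible genes have no region in any list.

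The CCT genes encode the 8 related subunits of 1 cytosolic ring complex, which folds actin and tubulin, yet only CCT3 and CCT8 passed. The other 6 all had a relaxed region within 500 bp, so that 8 of 8 CCT promoters were in the pooled relaxed list against 53.2% of all protein-coding genes. Their pooled ranks ran from 4663 to 24033. CCT7 was closest to the threshold, at rank 4663 with a signal value of 85.9, where the weakest IDR peak had 95.3. Its replicate ranks, 5064 and 4877, were nearly equal. CCT5 followed at 4805 with 84, but the replicates differed, with ranks of 9481 and 2979. CCT2 differed the other way, at 6004 pooled, 3820 in replicate 2 and 8318 in replicate 3.

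The weaker CCT regions lay well down the list. CCT1 had pooled rank 6151 (7638 and 5804 in replicates 2 and 3), CCT4 9962 (12795 and 21355), and CCT6 24033, with no region in replicate 2 and rank 15676 in replicate 3. No CCT gene had a pooled rank between 2264, of the bound CCT8, and 4663, of the unbound CCT7. In single replicates CCT2 and CCT5 each stood above rank 4033 in 1 replicate and below it in the other.

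Both bound CCT genes had their peak closer to a neighbour. CCT3, on 3R from 16647605 to 16649978, starts 601 bp from the divergent gene CG10324. The peak from 16646956 to 16647379 (signal value 159.5, rank 1783) had its summit 437 bp upstream of CCT3 and 164 bp upstream of CG10324. The replicates ranked it 1888 and 1868, with signal values of 62.2 and 94.1. CCT8, on 2R from 8904844 to 8906990, starts 528 bp from the divergent gene CG30349. Its peak, from 8907273 to 8907696 (signal value 136.7, rank 2264), had its summit 495 bp upstream of CCT8 and 33 bp upstream of CG30349. The replicate ranks were 2357 (signal value 54.9) and 2536 (78.9). When a peak counted for 1 start site alone, the nearest, no CCT gene was bound.

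The 7 heat-inducible genes were empty in every list: no region of the pooled or of either replicate's relaxed list had its summit within 500 bp of a start. For the 6 Hsp70 genes this cannot be told apart from missing reads, because these genes are mostly repeated sequence within 500 bp of their starts. They form 2 clusters on 3R, Hsp70Aa and Hsp70Ab between 11954163 and 11960909, and Hsp70Ba, Hsp70Bbb, Hsp70Bb and Hsp70Bc between 12465453 and 12511461. Within a cluster the gene bodies were 98.1% to 100% identical over aligned bases, and between clusters 94.5% to 95.6%. The 500 bp upstream were 90.8% to 100% identical over aligned bases within clusters and 85.3% to 92.1% between them. By the same measure Hsp68 was 71.7% to 78.1% identical to the Hsp70 copies. Over all 500 bases, unaligned ones included, identity was 84.4% to 100% within clusters and 76.8% to 84.0% between them. With Hsp68 it was 58.6% to 62.2%.

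Repetition was measured as the share of 50-base words, in the 500 bp to either side of the start, that occur once in the genome on either strand. It was 25.1% at Hsp70Aa, 22.9% at Hsp70Ab, 42.5% at Hsp70Ba, 6.62% at Hsp70Bb, 5.25% at Hsp70Bbb and 0% at Hsp70Bc. Of the other 24 genes, 22 stood at 100%, Hsp83 at 96.4% and CCT2, upstream of which repeats begin, at 87.1%. Over all protein-coding genes, 293 had a share under 50%, and of these 0 were bound and 1 had a pooled relaxed region. Of the 13383 genes at 95% or more, 19.5% were bound and 55.0% had a relaxed region. The repeats did not fill the whole window at Hsp70Aa and Hsp70Ab. In the 100 bp bins starting 500 and 400 bp upstream, the share was 100% in both at Hsp70Aa. At Hsp70Ab it was 80% and 88%. No region had its summit there either. No source used here gives the read length or says whether reads with several matches entered the lists.

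**Figure D2:**
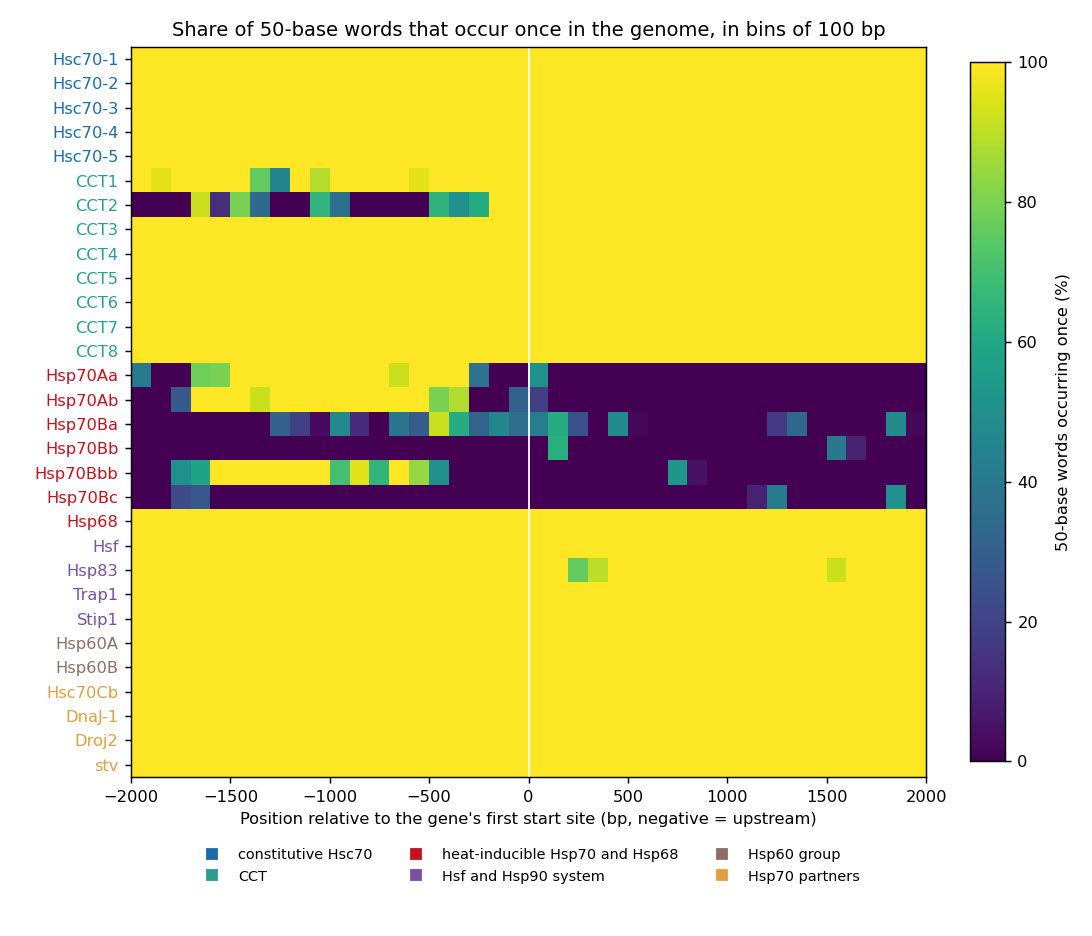
Share of 50-base words that occur once in the genome (colour, %), in bins of 100 bp along the 4 kb centred on each gene's first start site. The 6 Hsp70 rows are largely dark, down to 0% at Hsp70Bc within 500 bp of the start. Those of Hsp70Aa, Hsp70Ab and Hsp70Bbb have a lighter stretch upstream, which at Hsp70Aa and Hsp70Ab reaches inside 500 bp. CCT2 is dark only upstream. CCT1 and Hsp83 have a few bins under 100%, and Hsp68 and the other genes are unique throughout.

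The promoter of Hsp68 is not repeated, and 100% of its 50-base words were unique. Hsp68 encodes an Hsp70-type protein and lies on 3R from 24055080 to 24057310 on the minus strand. The nearest pooled relaxed summit was 929 bp from its start, at rank 4825, and the nearest ones of replicates 2 and 3 were 802 and 943 bp away. The nearest IDR summit was 19527 bp away. The stretch around its start without a pooled relaxed summit was 2678 bp long, below the median of 4125.5 bp over 13938 genes, whereas that around Hsp70Bb, Hsp70Bbb and Hsp70Bc was 34928 bp, and 7.69% of genes lay in a longer one. Hsp68 shared this emptiness with 2 other genes of unique promoters, Hsc70-2 and Hsp60B. Among the 23 members at 95% or more unique words, 8 were bound (34.8%) and 20 had a pooled relaxed region (87%), where the shares over all protein-coding genes of that uniqueness were 19.5% and 55.0%.

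The promoters of the heat-inducible genes are shown because their heat shock elements and repetition can be read from the bases. Each run is the 120 bases up to the start site, read 5′ to 3′ on the gene's strand, with heat shock elements and TATAAA in capitals. Hsp70Bbb and Hsp70Bc have the same 120 bases as Hsp70Bb, and Hsp70Aa shares a run of 119 bases with Hsp70Ab. Hsp70Ab and Hsp70Bb, of different clusters, share a run of 56. The runs of the Hsp70 genes hold an element of 3 units, while that of Hsp68 holds elements of 2 units, its 3-unit matches lying 182 to 160 bp upstream, before the bases shown.
Hsp70Ab, chr3R:11958415-11958534, plus strand: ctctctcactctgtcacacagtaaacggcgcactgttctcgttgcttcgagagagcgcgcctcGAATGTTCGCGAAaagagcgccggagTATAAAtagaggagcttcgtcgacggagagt
Hsp70Bb, chr3R:12505673-12505792, plus strand: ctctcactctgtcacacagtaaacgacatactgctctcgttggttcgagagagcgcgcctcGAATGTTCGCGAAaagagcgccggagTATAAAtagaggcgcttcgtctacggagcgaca
Hsp68, chr3R:24057311-24057430, minus strand: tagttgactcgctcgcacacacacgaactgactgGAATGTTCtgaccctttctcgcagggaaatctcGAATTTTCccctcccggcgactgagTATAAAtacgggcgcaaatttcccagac

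Heat shock elements of 3 units, in which GAA and TTC alternate with NN between them, marked off the heat-inducible promoters at first start sites. In the 300 bases from 250 before to 50 after the first start site, on both strands, all 7 heat-inducible genes had one, no other member did, and 0.43% of all protein-coding promoters did. Since 6 of the 7 are copies, they are not independent examples. A later search of every annotated start also found one at Hsc70-4, a bound constitutive gene, 205 to 193 bp upstream of an internal start. By that search 0.567% of all protein-coding genes had one. The element of 2 units, which every element of 3 units contains, was in 15 of the 30 promoters and in 15.9% of all promoters. Over windows of 50 bases to either side of IDR summits, the 2-unit element was in 6.05% of 4033, and in 2 of the 8 member windows, Hsc70-4 and Hsp83. The 3-unit element was in 0.198% of the summits and in none of the 8. A match is a match of letters and not a shown site of Hsf.

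The CCT promoters shared another word, which was not particular to them. The DRE core, CGATA, which the full DRE holds on both strands, was in 8 of 8 CCT promoters and in 47.4% of all protein-coding promoters. It was in 17 of the 30 member promoters. Those outside the CCT genes were Hsc70-3, Hsc70Cb, DnaJ-1, Hsp60A, Hsp60B, Hsf, Hsp83, Trap1 and Stip1. None of the 7 heat-inducible promoters, 6 of them Hsp70 copies, held it. The full DRE was in CCT2 and CCT5 of the CCT genes, and in 9.36% of all promoters. In CCT1 to CCT6 and in CCT8 a core lay in the last 60 bases before the start, and in CCT7 the nearest was 220 bp upstream. The last 60 bases before the start are shown for 5 CCT genes, with the core in capitals on either strand.
CCT1, chr3R:22491440-22491499, minus strand: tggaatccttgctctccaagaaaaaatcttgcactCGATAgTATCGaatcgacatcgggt
CCT2, chrX:9089453-9089512, plus strand: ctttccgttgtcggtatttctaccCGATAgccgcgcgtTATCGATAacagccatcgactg
CCT3, chr3R:16647545-16647604, plus strand: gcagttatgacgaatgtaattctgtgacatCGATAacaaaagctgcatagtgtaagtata
CCT4, chr2L:12692935-12692994, minus strand: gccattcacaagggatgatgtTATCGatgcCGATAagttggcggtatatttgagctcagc
CCT6, chrX:15746588-15746647, plus strand: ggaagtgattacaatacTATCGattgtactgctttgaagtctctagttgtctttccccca

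The cores of CCT3 and CCT8 were not under their peaks, whose summits lay 437 and 495 bp upstream. Of the 8 member summit windows only that of Hsc70-5 held CGATA, where 17.5% of all IDR summits did. CGCG, the centre of the CGCG box, was in 13 of the 30 promoters, all 6 Hsp70 copies among them, and in 40.6% of all promoters. It was in 1 of the 8 member summit windows, again Hsc70-5, and in 11.6% of all IDR summits. Motif 1, GGTCACAC, was in the promoters of CCT4, CCT6, Droj2 and Hsp60A, none of them within a member summit window, and in 7.7% of all promoters. TATAAA was in 19 of the 30 (45.8% of all), GAGAG in 13 (29.7%) and the E-box CACGTG in 0 (4.2%).

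**Figure D3:**
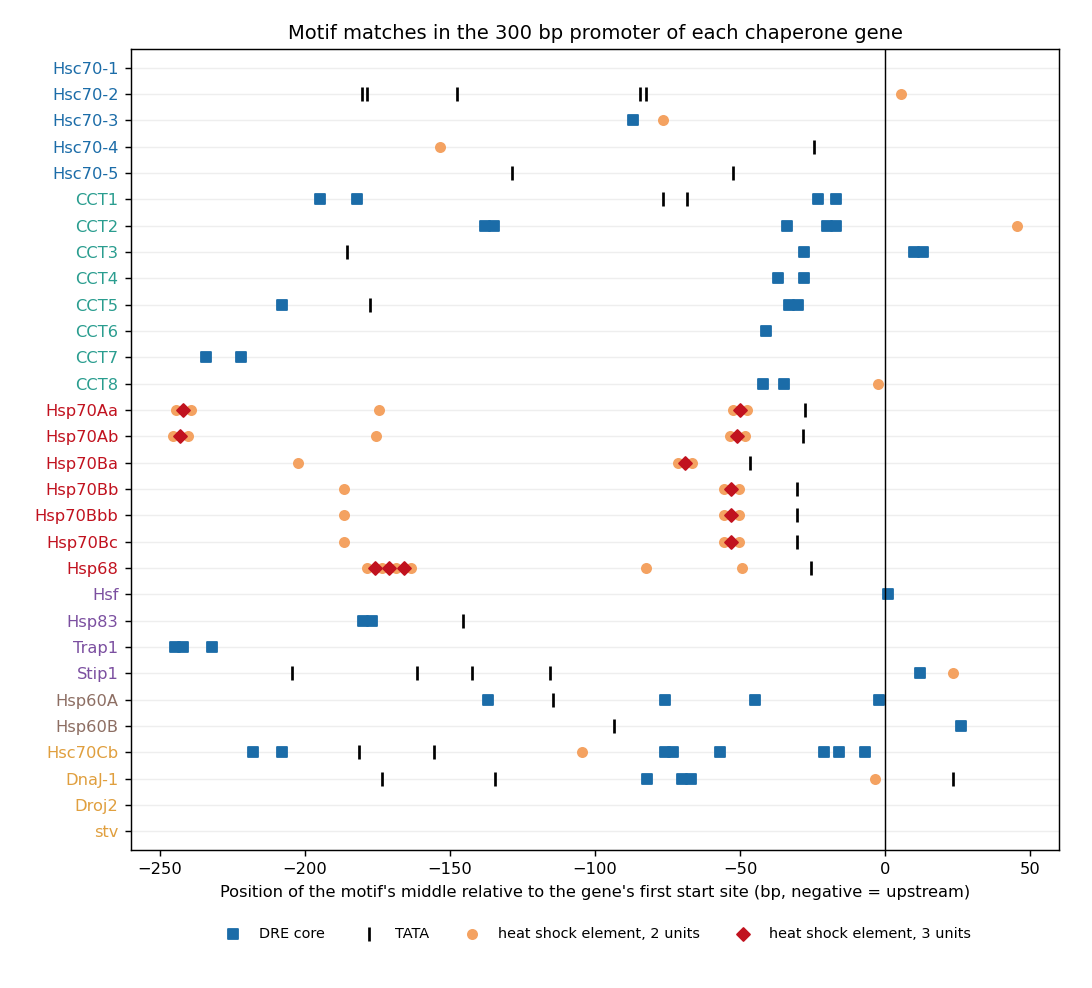
Matches to the DRE core, TATAAA and heat shock elements of 2 and 3 units, on both strands, in the promoter of each gene from 250 bp before to 50 bp after its first start site (horizontal axis, bp). The 3-unit elements lie in the 7 heat-inducible rows alone, and DRE cores in all 8 CCT rows, in rows of other classes and in none of those 7.

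The Hsp70 partners were bound through Droj2 and stv. Droj2 encodes a J-domain protein and lies on 3R from 13382106 to 13385283. Its peak, from 13381681 to 13382104, was the weakest of the 8 (signal value 100.1, rank 3748), and its −log10 q value of 3.4 compared with 3.84 at each of the other 7. The summit was 213 bp upstream of Droj2 and 84 bp upstream of the divergent mRpS21, which encodes a mitochondrial ribosomal protein and starts 297 bp away. Its ranks were 5602 in replicate 2 (signal value 33.2) and 3256 in replicate 3 (66.9), and it was the only one of the 8 peaks outside the 4033 strongest regions of a replicate.

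stv, starvin, encodes a BAG-domain co-chaperone of Hsp70 and lies on 3L from 13477541 to 13483515. Its bound peak, from 13479735 to 13480158 (signal value 105.4, rank 3434), lay in an intron, with the summit 497 bp upstream of an internal start site. The replicate ranks were 2796 (signal value 50.1) and 3800 (60.6). A stronger IDR peak, with a signal value of 171.3 and rank 1586, had its summit 517 bp upstream of the first start site of stv and so fell just outside the window.

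The unbound partners had relaxed regions. Hsc70Cb encodes the Hsp110 that exchanges nucleotides on Hsp70, and had a region 19 bp upstream of a start at pooled rank 5950, with ranks of 6059 and 5638 in the replicates. DnaJ-1, an Hsp40, had rank 8629 (18229 and 6814). Hsp60A, the mitochondrial chaperonin, came close to the threshold on X, with pooled rank 4576, a signal value of 87.1 and replicate ranks of 6642 and 4217. Hsp60B, a chaperonin gene needed in the male germ line, had no region within 500 bp.

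The remaining genes of the Hsf and Hsp90 system were weaker still. The promoter of Hsf itself, on 2R from 18130303 to 18134634, held a region at pooled rank 16846, with rank 7892 in replicate 2 and none in replicate 3. Trap1, the mitochondrial Hsp90, stood at 14488 (10843 and 14952). Stip1, the adaptor between Hsp70 and Hsp90, stood at 14281, with none in replicate 2 and 11934 in replicate 3. The IDR peak nearest to Stip1, of signal value 356, was 2730 bp from its start and 28 bp from that of Pi3K21B.

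**Figure D4:**
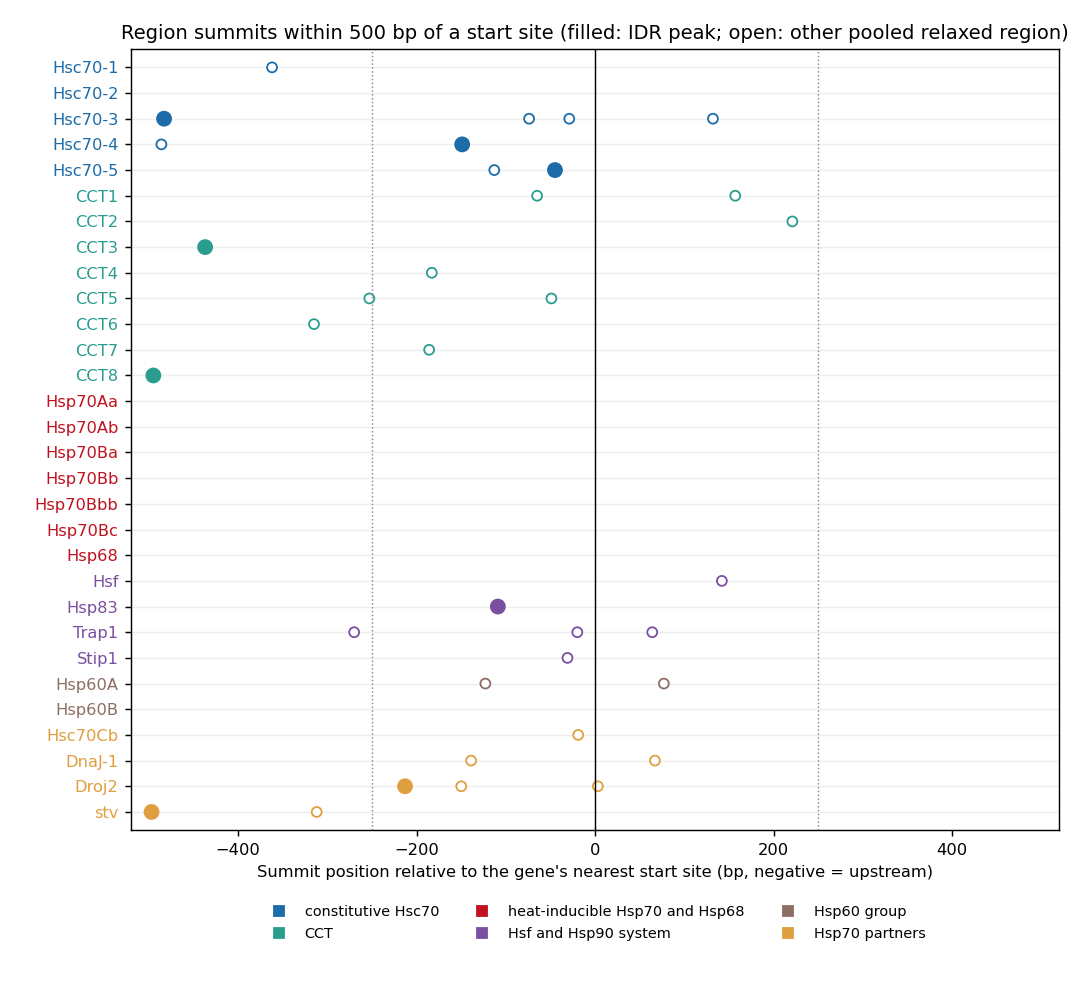
Summit positions relative to each gene's nearest start site (bp, negative is upstream) of the IDR peaks (filled) and of other pooled relaxed regions (open) within 500 bp; dotted lines mark 250 bp. The 8 IDR summits all lie upstream, those of Hsc70-3, CCT3, CCT8 and stv beyond 400 bp.

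The summits of Hsc70-5, Hsp83, Hsc70-4 and Droj2 lay 45 to 213 bp from a start site, and those of CCT3, Hsc70-3, CCT8 and stv 437 to 497 bp. All 8 were upstream of the gene's nearest start, as were 86.3% over all bound protein-coding genes. The median distance, which falls between these sets of 4, was 325 bp, against 135 bp over the 2619 bound genes, and 4 of 8 summits were more than 400 bp away, against 5.84%. These are pooled summits, and single replicates differed. The region over the Hsc70-5 peak had its summit 17 bp downstream of the nearest start in replicate 2 and 37 bp downstream in replicate 3. That of Hsc70-4 was 12 bp downstream in replicate 2. Peaks were shared with another gene in 5 of 8 cases, against 60.6% of all bound genes, and in 3 of these 5 (CCT3, CCT8 and Droj2) the neighbour's start was nearer. Among the 11 members with another gene's start within 500 bp of their own, 4 were bound, and among the 19 without one, 4 were, where the shares over all protein-coding genes were 33.6% and 11.1%. The last 4 include CCT3 and CCT8, whose neighbours start 601 and 528 bp away and are nearer to the shared peaks. The median GC content of the 8 summit windows was 42.6%, against 34.7% over all IDR summits. The median signal value of the 8 peaks was 149.2, close to the 154.6 of all bound genes. These are descriptions of 8 genes, and no difference was tested.

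The number of bound members followed the window and the threshold. With a window of 250 bp, 4 genes were bound (Hsc70-4, Hsc70-5, Hsp83 and Droj2), a share of 13.3% against 15.3% of all protein-coding genes, and with 1000 bp the same 8 genes were bound, against 21.6%. When a peak counted for its nearest start alone, 5 were bound (Hsc70-3, Hsc70-4, Hsc70-5, Hsp83 and stv), or 16.7% against 13.8%. Among pooled regions with a q value of 0.01 or less, 12 were bound, or 40% against 24.4%, and Hsc70-1, CCT5, CCT7 and Hsp60A were added. In the stronger 2016 of the IDR peaks 4 were bound, or 13.3% against 10.1%. The share of members thus stood above that of all genes by the main rule, 26.7% against 18.8%, and below it with the narrow window. These shares rest on few genes, and no difference was tested.

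Each replicate alone gave nearly the same number. The 4033 strongest regions of replicate 3 reached 7 members, against 18.9% of all protein-coding genes, and those of replicate 2 reached 8, against 18.0%. Replicate 3 lacked Hsc70-3 and CCT3 and added CCT5, and replicate 2 lacked Droj2 and added CCT2. Regions of replicate 3 did cover the IDR summits of Hsc70-3 and CCT3, at ranks 2809 and 1868, but their own summits lay more than 500 bp from the start. No gene of the heat-inducible class was bound by any of these rules, which follows from the lack of any region within 500 bp of their starts.

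Further genes of the chaperone network, listed by function but with earlier results of these data known, were bound in 12 of 32 cases (37.5%), against the 18.8% over all genes, and 26 of the 32 had a pooled relaxed region, against 53.2%. Most of the 12 shared their peak with another gene. With each peak counted for its nearest start, 10 were bound, or 31.2% against 13.8%. In the stronger 2016 of the IDR peaks 4 were, or 12.5% against 10.1%. No difference was tested. The strongest peak was at mrj, a J-domain protein gene, with a signal value of 523 and rank 158, 304 bp upstream of a start site. It was followed by unc-45, a myosin chaperone gene, with 209, Tpr2, which encodes a J-domain co-chaperone, with 207.9, and CG11267, annotated here by number alone, with 167.4. The peaks of mrj and CG11267 lay within 500 bp of no other gene's start, that of unc-45 also near CG11035 and that of Tpr2 also near lncRNA:CR44994.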

How the data were processed

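The data were peak lists of ChIP-seq on 2 biological replicates of Camta-eGFP embryos, in dm6 coordinates. Per the file records, the authors made a relaxed list for each replicate and for both pooled, each with 1 further file, and derived the IDR list from these 3. No source used here names the aligner or peak caller. The signal value of a region and the −log10 of its q value are as deposited by the authors, and how the signal was scaled is not given. The IDR peaks were the 4033 pooled regions of highest signal. Lists on dm3 were not used here, since the annotation used has dm6 coordinates.

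Start sites came from Ensembl release 115, without pseudogenes and transposable elements, and sequence from RefSeq Release 6. Ranks were taken within a list. The nearest start of a gene set the sign of a distance, and word uniqueness was counted in the best start of each gene, with words of 36, 50 and 100 bases. Upstream and gene body sequences were aligned globally, and identity is over aligned bases. The 9 motifs were searched on both strands. Sequences under member peaks other than those printed are not reported here. The members, classes, motifs and further list were chosen with earlier results of these data known, so only counts beside the share of all genes are given. All 30 members are named, with the 4 further genes of highest signal and any gene sharing a member's peak. The other genes named are those nearest to a peak described. Of the 33 further genes listed, 1 was not matched to a single gene and was left out. Alternatives covered the window, threshold, overlap, annotation, replicate and word length. The calls of bound genes and of unique words were tested on simulated data. Python 3.11.15, NumPy 2.4.6, pandas 2.3.3 and Biopython 1.88 were used.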

Additional observations from a re-analysis of the deposited data

How the results depend on the processing

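The calls rest on 2 replicates and a fixed IDR threshold, and depth is unknown. The heat-inducible genes were at 0 of 7 under all 9 alternatives run, but 6 of these 7 lie in repeats. These zeros followed from the empty lists and are no separate support. No list had a region within 500 bp of their starts, and the nearest IDR summit was 4439 bp away. Of 64 alternative values, 51 were within 1.5 times the main one, these 9 zeros among them. The number of bound members, 8, fell to 4 with a 250 bp window, to 4 in the stronger 2016 of the IDR peaks and to 5 with each peak counted for its nearest start. The constitutive Hsc70 and CCT genes, 5 of 13, fell to 2, 3 and 3 under these settings and rose to 8 with pooled regions at a q value of 0.01 or less. In those 2016 peaks the other classes fell from 3 to 1, the further network genes from 12 to 4, and all protein-coding genes from 2619 to 1412. Leaving out 1 replicate gave 7 to 8 bound members, 4 to 6 constitutive Hsc70 and CCT genes, 2 to 3 genes of the other classes, 9 to 12 network genes and 2510 to 2629 genes in all. RefSeq start sites and any overlap with the window changed no member. In the 8 summit windows the 3-unit heat shock element was in 0, the 2-unit element in 2 and the DRE core in 1, against 7, 15 and 17 of the 30 promoters; fewer windows and shorter sequence lower these counts. Searching every annotated start, an alternative chosen after seeing the data, gave 8, 18 and 20, with Hsc70-4 added to the 3-unit genes. With words of 100 bases, 5 rather than 6 members were under 50% unique, Hsp70Ba standing at 67.7%. No paired analysis was possible because there is 1 group.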
